A study of Canis lupus familiaris with 16 samples.

Results

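The effect of toceranib was measured by RNA sequencing in 4 canine liver cancer cell lines of the KU-cHCC series (numbered 001, 002, 004 and 005) by setting each toceranib library against the DMSO library of the same line. These are 8 of the 16 libraries of the study, chosen by treatment and line label, with 1 library per line and treatment. The lines were grown out of hepatic tumours of dogs and are labelled as hepatocellular carcinoma (HCC). Toceranib was given at 15 µM and DMSO as a solvent control, each for 24 h, in the same medium with fetal bovine serum and N-acetyl-L-cysteine. The other 8 libraries hold sorafenib (30 µM) and DPBS, a buffered saline.

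DPBS, not DMSO, is the stated vehicle of toceranib, and DMSO that of sorafenib. The comparison therefore holds the drug and the change of vehicle together, and these cannot be told apart. DMSO served as the control because its libraries match the lines of the toceranib libraries, whereas the DPBS libraries fall into 2 alike pairs that do not follow their line labels. DPBS levels are given beside many of the results for that reason, under the labels they carry. A result printed without them says nothing about DPBS. Since a line has a single library per treatment, the error of every value is the spread between lines, and a response of 1 line alone has no test.

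Toceranib is a small-molecule inhibitor of receptor tyrosine kinases and is used against tumours of dogs. Its known targets are KIT, the receptors of vascular endothelial growth factor (VEGF) and those of platelet-derived growth factor (PDGF), which pass growth signals from outside the cell to the RAS-ERK and PI3K-AKT pathways. Like many weakly basic kinase inhibitors it can collect in acidic compartments such as lysosomes. Drugs of this kind can also meet the aryl hydrocarbon receptor, a transcription factor that binds flat aromatic molecules and switches on the enzymes that oxidise them.

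Library totals ran from 17055803 to 19917958 counts with DMSO and from 12008366 to 21943572 with toceranib, and 13523 to 14548 and 14114 to 15449 genes per library had 10 or more counts. Levels below are CPM, read counts scaled to a common library size with TMM factors, always in the order KU-cHCC-001, 002, 004, 005. A difference is the log2 fold change (toceranib minus DMSO) from edgeR's paired fit over 14282 genes. Its standard error (SE) was derived from that fit, as the size of the change divided by the square root of the test's F statistic. Adjusted p means the Benjamini-Hochberg value of that fit, called under 0.05. The lines carried bile duct transcripts (summed markers 1741 to 14835 CPM with DMSO and 3987 to 13127 with toceranib) and hardly any hepatocyte ones (151 to 341 and 174 to 445 CPM), and albumin (ALB) reached at most 0.431 CPM. KU-cHCC-001 stood apart from the other lines. Its bile duct markers lay at 1741 CPM with DMSO and 3987 CPM with toceranib, against 10293 to 14835 and 10444 to 13127 CPM elsewhere. Its mesenchymal markers lay at 15689 and 11236 CPM, against 3205 to 3469 and 3189 to 6709 CPM elsewhere. Fibroblast collagen and muscle actin transcripts differed between libraries of one line. COL3A1, a fibrillar collagen, had 0 counts in every DMSO library and stood at 6.58 CPM in the toceranib library of KU-cHCC-004 and at 52.6 CPM in that of KU-cHCC-005, and it reached 73.7 and 81.7 CPM with DPBS under the labels 002 and 005. ACTA2, smooth muscle actin, reached 12.2 and 110.2 CPM in the same pair of toceranib libraries against 2.04 and 0.332 CPM with DMSO. Over the whole mesenchymal list of 29 genes the summed level was 3205 to 15689 CPM with DMSO and 3189 to 11236 CPM with toceranib. Their part in the results below was not tested. In these bulk libraries fewer cells of a type and less RNA per cell cannot be told apart.

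Toceranib libraries differed from DMSO libraries in 129 of the 14282 genes (0.903%), of which 105 were higher (0.735%) and 24 lower (0.168%). The median log2 fold change was 2.22 among the higher genes and -1.56 among the lower ones. All 105 higher genes lay above DMSO in each of the 4 lines, and so did 15.9% of all genes. Of the 24 lower genes 23 lay below DMSO in each line, against 14.5% of all genes, the exception being FUT5, a fucosyltransferase listed at 0 in KU-cHCC-001. In 60 of the 105 higher genes all 4 toceranib libraries stood above all 4 DMSO libraries (4.27% of all genes), and in 13 of the 24 lower genes all stood below (3.48%). Counts of direction and of overlap use the libraries from which the genes were called, which favours them. They therefore add no support to the calls. Without adjustment 3198 genes (22.4%) had a p under 0.05, 1932 higher (13.5%) and 1266 lower (8.86%).

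**Figure D1:**
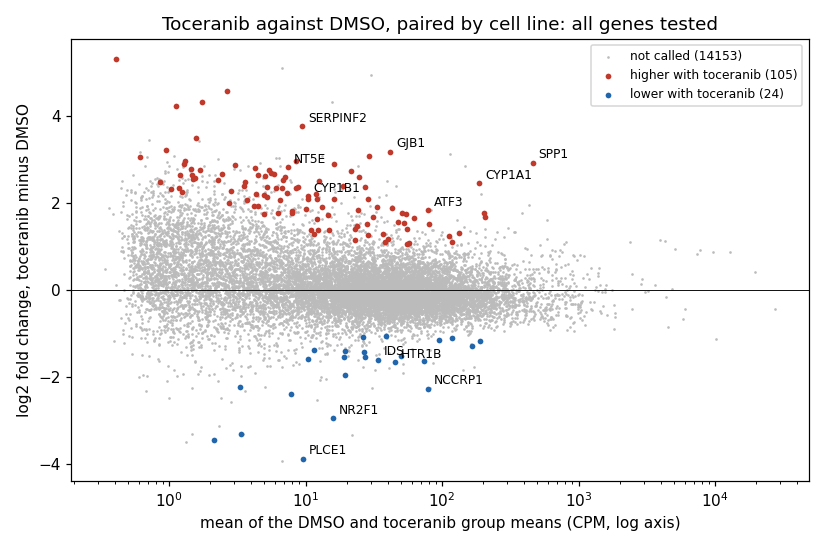
Log2 fold change of toceranib against DMSO (vertical axis) over the mean level of each gene in CPM (horizontal log axis), with 105 genes called higher in red, 24 called lower in blue and the others in grey. SERPINF2 (3.77) and PLCE1 (-3.88) mark the upper and lower ends among the labelled genes, and the called genes spread widely in level.

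The number of genes called depended on which lines entered. Without KU-cHCC-001 edgeR called 1755 genes (1194 higher and 561 lower), without KU-cHCC-004 it called 3, and without KU-cHCC-002 or KU-cHCC-005 it called 0, with 2310 and 1628 genes at an unadjusted p under 0.05. The 3 genes were GJB1, RNASE4 and SLITRK4. Some genes not called are printed below with an adjusted p without KU-cHCC-001. That fit called 8.34% of its genes higher and 3.92% lower. None of those genes passed 0.05 without KU-cHCC-002, KU-cHCC-004 or KU-cHCC-005. All of the 129 genes were also called without KU-cHCC-001, and all 129 kept their direction when KU-cHCC-002 or KU-cHCC-005 was left out. Adding the 4 sorafenib libraries to the estimate of the spread gave 1115 calls (4.31% of its genes higher and 3.15% lower), 128 of the 129 among them. With RLE scaling and with mitochondrial transcripts left out, AMN, ARHGAP45, APOL5, SEMA3E, TP53INP1, ADM and ABCC6 of the genes named below passed 0.05 no longer (edgeR adjusted p = 0.0511 to 0.0552).

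**Figure D2:**
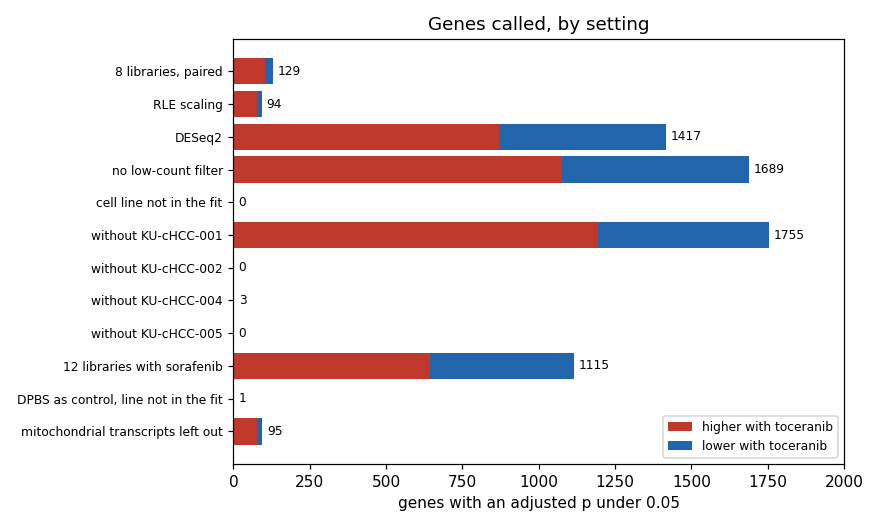
Genes with an adjusted p under 0.05 (horizontal axis, number of genes) in the paired fit of 8 libraries and in 11 alternative fits, higher with toceranib in red and lower in blue. The total goes from 0 without KU-cHCC-002, without KU-cHCC-005 or with the line left out of the fit to 1755 without KU-cHCC-001.

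Most of the called genes stood in the DPBS libraries between their DMSO and toceranib levels or past the latter. Of the 105 higher genes, the DPBS mean lay at or past the toceranib mean in 31, nearer to it than to DMSO in 50, nearer to DMSO in 21 and on the opposite side of DMSO in 3. For the 24 lower genes these numbers were 4, 12, 7 and 1. The genes were called from the same DMSO and toceranib libraries that DPBS is placed between here, which favours such positions. The same numbers were not counted over all genes, so they do not set the called genes apart. All 4 toceranib libraries stood above all 4 DPBS libraries in 21 of the 105 higher genes (4.05% of all genes) and below in 10 of the 24 lower genes (5.8%). A fit of toceranib against DPBS without the line labels called 1 gene at an adjusted p under 0.05 and had 1799 genes at an unadjusted p under 0.05. That gene was CYP1A1. No DPBS library had the marker levels of KU-cHCC-001. Bile duct markers lay at 9407 to 9876 CPM and mesenchymal ones at 3062 to 6791 CPM with DPBS, against 3987 and 11236 CPM in the toceranib library of KU-cHCC-001. The fit thus compares unlike sets of lines, so its number of calls cannot show how far toceranib differs from its vehicle.

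Targets of the aryl hydrocarbon receptor were among the called genes, and in 1 of them, CYP1A1, all toceranib libraries stood above both controls. CYP1A1, the cytochrome P450 most closely tied to that receptor, stood at 30.7, 45.5, 75.0 and 101 CPM with DMSO and at 333, 328, 279.9 and 301 CPM with toceranib. The groups did not overlap, and the 4 lines, which were spread widely with DMSO, came close to each other with toceranib. CYP1A1 rose by 2.45 ± 0.32 on the log2 scale (SE, n = 4 lines, edgeR adjusted p = 0.0222). The DPBS libraries stood at 57.4 to 73.3 CPM, and against them the difference was 2.28 ± 0.14 (SE, edgeR adjusted p = 0.00115). That unpaired fit counts the DPBS libraries as independent although they fall into alike pairs, so its SE and p may be too small.

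CYP1B1, a related oestrogen- and hydrocarbon-oxidising enzyme, stood at 9.41, 0.597, 3.62 and 1.60 CPM with DMSO and at 45.7, 4.15, 11.2 and 6.46 CPM with toceranib. Each line rose although the groups overlap, since KU-cHCC-001 was highest under both treatments. The difference was 2.16 ± 0.29 (edgeR adjusted p = 0.0265), and all DPBS libraries (at most 0.734 CPM) lay under all toceranib libraries. TIPARP, a poly(ADP-ribose) polymerase that feeds back on the receptor, went from 41.4, 61.9, 112 and 58.2 CPM to 103, 151, 195 and 171 CPM, a rise of 1.26 ± 0.19 (edgeR adjusted p = 0.0346), with DPBS at 79.2 to 98.1 CPM.

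Of the 9 tested genes on the list of aryl hydrocarbon receptor targets these 3 were called higher and none lower, beside 0.735% and 0.168% of all genes. The receptor's repressor AHRR (4.33, 8.60, 3.74 and 5.03 CPM with DMSO, 5.89, 11.01, 2.36 and 3.27 with toceranib) and the receptor AHR itself (0.04 ± 0.22) were not called. Nor was NQO1, a quinone reductase under this receptor and NRF2, which stood at 61.7 CPM with DMSO and 178 with toceranib in KU-cHCC-001 but at 205, 233 and 306 against 199, 147 and 140.1 CPM in the other lines. SLC7A5, an amino acid transporter on the same list, stood lower (-1.06 ± 0.25, edgeR adjusted p = 0.0697). The list's median log2 fold change was 0.59, with 0.93, 0.66, 0.06 and 0.26 by line, against 0.00 over all genes, and 0.23 without KU-cHCC-001.

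**Figure D3:**
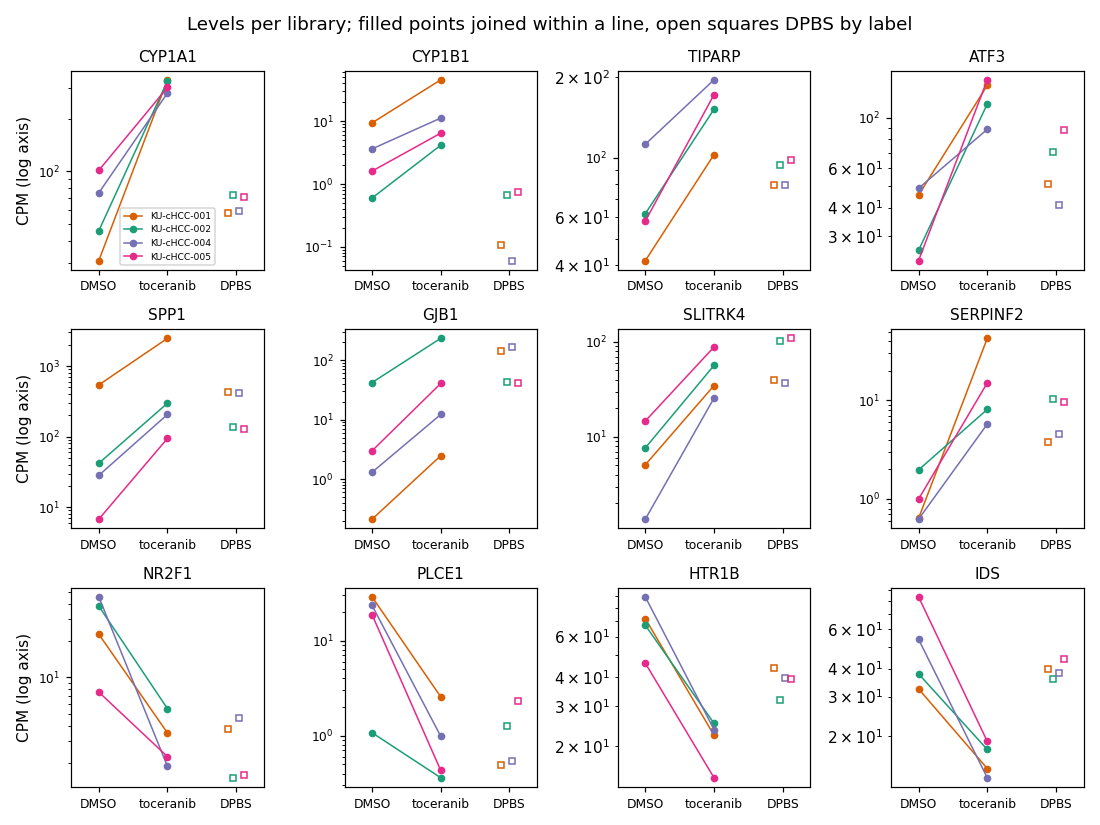
CPM per library (vertical log axes) of 12 genes with DMSO, toceranib and DPBS, coloured by line, with lines joining the DMSO and toceranib libraries of one cell line and open squares for DPBS under its labels. CYP1A1 reaches 279.9 to 333 CPM with toceranib against 57.4 to 73.3 with DPBS, whereas the DPBS levels of GJB1, SLITRK4, SPP1, NR2F1 and PLCE1 fall within or past the range of the toceranib libraries.

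The receptors that toceranib is known to inhibit were mostly scarce in these lines. KIT, the stem cell factor receptor, had 0 counts in all 8 libraries, where 3 counts would be 0.128 to 0.258 CPM. KDR, the main VEGF receptor of endothelium, reached 5.23 CPM with DMSO and 10.2 CPM with toceranib, both in KU-cHCC-001. In the other lines KDR lay at or under 0.119 CPM with DMSO and 0.481 CPM with toceranib. PDGFRB, FLT3, CSF1R and RET stayed under 1 CPM. Of the 9 listed receptors, 3 could be tested and none was called.

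FLT1, a VEGF receptor that can also act as a decoy, stood at 34.1, 43.4, 35.7 and 61.7 CPM with DMSO and at 33.5, 33.6, 0.603 and 3.88 CPM with toceranib. KU-cHCC-001 hardly differed, KU-cHCC-002 lay slightly lower, and the remaining lines stood far lower, so that the groups did not overlap. The fit gave -2.24 ± 1.17 (edgeR adjusted p = 0.322). The DPBS libraries showed a similar contrast under other labels, with 36.0 and 40.2 CPM for KU-cHCC-001 and 004 and 5.48 and 5.76 CPM for KU-cHCC-002 and 005. FLT4, the receptor of lymphatic VEGF, stood at 6.08, 15.3, 14.7 and 10.3 CPM with DMSO and 18.7, 16.8, 14.7 and 33.7 CPM with toceranib (0.88 ± 0.35, edgeR adjusted p = 0.181). PDGFRA, a PDGF receptor typical of mesenchymal cells, was highest in KU-cHCC-001, at 61.4 CPM with DMSO and 37.8 CPM with toceranib, while no other line exceeded 9.57 CPM (-0.22 ± 0.28, edgeR adjusted p = 0.689).

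None of 13 tested ligands of these receptors was called, and 4 were higher and 0 lower at an unadjusted p under 0.05 (13.5% and 8.86% of all genes). VEGFA, the chief angiogenic factor, stood at 82.0, 34.6, 62.3 and 40.4 CPM with DMSO and at 89.3, 108, 84.9 and 100.3 CPM with toceranib. All toceranib libraries lay above all DMSO libraries and above DPBS (57.8 to 69.5 CPM), with a difference of 0.90 ± 0.27 (edgeR adjusted p = 0.109, and 0.0224 without KU-cHCC-001). PDGFD, a PDGF receptor ligand, gave 2.48 ± 0.63 (edgeR adjusted p = 0.0840). Placental growth factor, PGF, which binds FLT1, gave 1.05 ± 0.38 (edgeR adjusted p = 0.152). The KIT ligand KITLG went from 22.5 CPM (DMSO) to 3.84 CPM (toceranib) in KU-cHCC-001, and at 6.21 to 12.3 against 6.98 to 10.4 CPM elsewhere (-0.61 ± 0.50, edgeR adjusted p = 0.508).

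Genes that report on ERK signalling downstream of these receptors had 2 calls higher and 0 lower among 25 tested, beside 0.735% and 0.168% of all genes, and a median of 0.02. DUSP6, a phosphatase that ERK induces against itself, stood at 269, 138, 177 and 178 CPM with DMSO and at 187, 153, 187 and 205 CPM with toceranib (-0.01 ± 0.20, edgeR adjusted p = 0.986). The groups overlapped throughout. CCND1, cyclin D1, gave -0.38 ± 0.20 and the immediate early factor EGR1 gave -0.67 ± 0.28 (edgeR adjusted p = 0.301 and 0.197). SPRY2, a feedback inhibitor of receptor signalling, stood level in KU-cHCC-001 (29.0 and 27.4 CPM) and at 7.53 to 11.6 against 19.1 to 23.8 CPM in the other lines.

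The pair called on that list were stress-inducible. IER3, an early response gene linked to cell survival, stood at 119.5, 60.0, 70.5 and 53.9 CPM with DMSO and at 257, 116, 124 and 146 CPM with toceranib. It rose in each line by 1.10 ± 0.19 overall (edgeR adjusted p = 0.0420), and all toceranib libraries lay above DPBS (54.9 to 88.4 CPM). ATF3, a transcription factor of the ATF/CREB family and the other of the pair, is described with the stress response.

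AKT2, a kinase of the PI3K pathway, fell from 16.2, 19.1, 17.6 and 14.04 CPM to 5.89, 8.00, 5.15 and 6.63 CPM. The groups were fully separate, and the DPBS libraries lay between at 10.5 to 14.6 CPM. The change was -1.37 ± 0.25 (edgeR adjusted p = 0.0470). AKT2 lies outside the rule for named genes and was picked after its values were seen, as were JAG1, PKHD1, CTSK, GPBAR1, GCKR, ODC1, PAM, CDC42EP1, INHBA and the other called genes named below that are neither on a list nor among the 12 largest of a direction.

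Among the 12 most increased genes that met the naming rule, which leaves out larger increases of scarce genes and of LOC symbols, were genes of secreted proteins. SPP1, osteopontin, a matrix phosphoprotein made by bile duct and tumour cells, stood at 539.9, 41.8, 28.2 and 6.75 CPM with DMSO and at 2472, 298, 206 and 94.4 CPM with toceranib. Every line rose severalfold and the order of the lines stayed the same, so the groups overlap only through KU-cHCC-001. The change was 2.93 ± 0.30 (edgeR adjusted p = 0.0173). DPBS libraries stood at 127 to 422 CPM.

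SERPINF2, the plasmin inhibitor alpha-2-antiplasmin, went from 0.634, 1.97, 0.623 and 0.995 CPM to 42.7, 8.12, 5.76 and 15.1 CPM. This was the largest increase among genes that met the naming rule, 3.77 ± 0.63 (edgeR adjusted p = 0.0439), and the DMSO and toceranib groups did not overlap. The DPBS libraries, at 3.80 to 10.4 CPM, overlapped the toceranib ones. RNASE4, a secreted ribonuclease, went from 1.59, 2.69, 16.1 and 1.77 CPM to 14.5, 32.9, 38.0 and 21.1 CPM (2.90 ± 0.42, edgeR adjusted p = 0.0346), with the smallest relative change in KU-cHCC-004, where DMSO was highest. Its DPBS libraries stood at 10.8 to 16.1 CPM. COL11A2, a minor fibrillar collagen chain, rose by 2.88 ± 0.50 from at most 2.22 CPM to 2.52 to 7.81 CPM (edgeR adjusted p = 0.0430). It also lay above every DPBS library (1.497 to 2.17 CPM). ECRG4, a secreted growth regulator, rose by 2.60 ± 0.44 (edgeR adjusted p = 0.0450), from 0.113 to 4.44 CPM in KU-cHCC-004 and from 18.4 to 104 CPM in KU-cHCC-001. Its DPBS level of 11.4 to 28.4 CPM lay within the toceranib range.

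Some of the other strongly increased genes encode proteins of the cell surface and its contacts. How common such genes and those of secreted proteins are among all genes tested was not counted. GJB1, the gap junction protein connexin 32 of hepatocytes, stood at 0.211, 42.0, 1.30 and 2.99 CPM with DMSO and at 2.48, 233, 12.2 and 40.7 CPM with toceranib. Levels spread widely between lines and rose in each, and GJB1 had the smallest p of all genes (3.18 ± 0.28, edgeR adjusted p = 0.0137) despite overlapping groups. The DMSO level of KU-cHCC-001 lay near the floor, where 3 counts are 0.159 CPM. The DPBS libraries stood at 41.4 to 166 CPM, and the unpaired difference from DPBS was -0.44 in the fit and -1.73 as a mean of log2 levels. SLITRK4, a neuronal-type adhesion protein, went from 5.07, 7.64, 1.36 and 14.7 CPM to 34.6, 56.4, 25.5 and 88.1 CPM, without overlap (3.08 ± 0.30, edgeR adjusted p = 0.0173). DPBS again lay at toceranib levels or higher (36.7 to 109 CPM, an unpaired difference of -0.46).

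NT5E, the ectonucleotidase CD73 that turns AMP into adenosine, was uneven between lines. It stood at 3.70, 0.179, 0.453 and 0.276 CPM with DMSO and at 50.4, 1.26, 1.75 and 1.21 CPM with toceranib (2.82 ± 0.43, edgeR adjusted p = 0.0346). On log2 of CPM + 0.5, the difference was 3.60 in KU-cHCC-001 and 1.14 to 1.38 in the other lines. That offset shrinks differences at DMSO levels as low as those of the other lines. AMN, the membrane anchor of the cobalamin receptor, rose by 2.81 ± 0.53 (edgeR adjusted p = 0.0499) without overlap, from 0.221 to 1.64 CPM with DMSO to 2.58 to 18.7 CPM with toceranib, and lay above DPBS too (1.47 to 2.45 CPM). SLC6A14, an amino acid transporter, went from 0.106, 0.836, 1.81 and 1.38 CPM to 0.171, 4.45, 17.7 and 9.22 CPM (2.65 ± 0.44, edgeR adjusted p = 0.0416), with next to no transcript in KU-cHCC-001. DPBS stood at 1.80 to 10.5 CPM, within the toceranib range.

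BAIAP2L2, a membrane-bending protein of microvilli, rose by 2.67 ± 0.37 (edgeR adjusted p = 0.0274), from 0.951 to 2.45 CPM with DMSO to 7.60 to 14.9 CPM with toceranib, above every DPBS library (4.40 to 6.41 CPM). ARHGAP45 rose by 2.53 ± 0.47 (edgeR adjusted p = 0.0494), but its DPBS level of 4.40 to 20.4 CPM lay within the toceranib range (1.97 to 30.9 CPM). VILL, a villin relative, rose by 2.09 ± 0.32 (edgeR adjusted p = 0.0347), EPS8L3, an actin regulator, by 2.37 ± 0.39 (0.0416), and the ciliary dynein chain DNAH10 by 2.38 ± 0.36 (0.0346).

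PKHD1, fibrocystin, a protein of bile duct cilia, was called with a small spread. It stood at 15.4, 15.8, 23.4 and 18.9 CPM with DMSO and at 41.4, 75.1, 68.7 and 87.5 CPM with toceranib, without overlap (1.88 ± 0.22, edgeR adjusted p = 0.0179). All DPBS libraries lay at or above the highest of these, at 87.5 to 143 CPM. JAG1, the Notch ligand of bile duct formation, rose from 48.7, 28.8, 28.7 and 18.5 CPM to 78.3, 121, 58.7 and 63.3 CPM (1.41 ± 0.26, edgeR adjusted p = 0.0470), and the DPBS libraries stood at 98.9 to 116 CPM. GPBAR1, a bile acid receptor, rose by 2.56 ± 0.45 at a low level, at most 4.65 CPM (edgeR adjusted p = 0.0439). GCKR, the glucokinase regulator of liver, rose from 18.9 to 38.2 CPM to 81.6 to 122 CPM (1.66 ± 0.25, edgeR adjusted p = 0.0346), and its toceranib libraries lay above all DPBS libraries (40.3 to 59.0 CPM).

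On the list of bile duct and progenitor markers, 1 of 17 tested, SPP1, was called higher and 0 lower (0.735% and 0.168% of all genes), with a median of 0.35. EPCAM, an epithelial adhesion molecule, stood at 232, 283, 264 and 313 CPM with DMSO and at 522, 692, 425 and 487 CPM with toceranib, without overlap (0.96 ± 0.22, edgeR adjusted p = 0.0670). The duct keratin KRT19 gave 0.25 ± 0.42, with 21.6 and 70.2 CPM in KU-cHCC-001 and 2638 to 5049 CPM in the others with either treatment. Among 30 tested junction and keratin genes GJB1 alone was called (0.903% of all genes), and the median was 0.07.

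Hepatocyte markers were called in 0 of 10 tested, with 4 members higher at an unadjusted p under 0.05 (13.5% of all genes) and a median of 0.98. That median was 1.48 without KU-cHCC-001, 0.53 without KU-cHCC-004 and -0.17 with DPBS as control. RBP4, the retinol carrier made by hepatocytes, stood at 19.6, 3.64, 6.51 and 2.38 CPM with DMSO and at 31.3, 15.998, 19.9 and 15.7 CPM with toceranib (1.78 ± 0.34, edgeR adjusted p = 0.0504). All toceranib libraries lay above DPBS (8.62 to 12.5 CPM). APOB, the lipoprotein backbone, stood at 8.60, 50.4 and 30.6 CPM with DMSO and 51.9, 74.4 and 140.4 CPM with toceranib in the lines 002, 004 and 005 and under 1 CPM in KU-cHCC-001 (1.49 ± 0.56, edgeR adjusted p = 0.185). AFP, the fetal albumin relative used as a tumour marker, went from 14.8 CPM (DMSO) to 9.65 CPM (toceranib) in KU-cHCC-001, and no other line exceeded 1.38 CPM.

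The most decreased gene that met the naming rule was PLCE1, a phospholipase C coupled to RAS. It stood at 28.9, 1.07, 23.5 and 18.8 CPM with DMSO and at 2.56, 0.361, 0.987 and 0.431 CPM with toceranib. KU-cHCC-002 had little of it from the start, which is why the groups overlap. PLCE1 fell by 3.88 on the log2 scale (SE 0.54, edgeR adjusted p = 0.0274), and the DPBS libraries were as low, at 0.488 to 2.31 CPM.

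NR2F1, an orphan nuclear receptor (COUP-TFI) tied to tumour cell dormancy and development, went from 22.6, 38.3, 45.6 and 7.58 CPM to 3.50, 5.53, 1.86 and 2.24 CPM. The groups did not overlap (-2.94 ± 0.42, edgeR adjusted p = 0.0346), and the DPBS libraries stood at 1.51 to 4.67 CPM, within or just under the toceranib range. APOL5, of the apolipoprotein L family, fell chiefly in KU-cHCC-004, from 22.02 to 0.767 CPM, and in the other lines from at most 2.54 CPM (-3.31 ± 0.62, edgeR adjusted p = 0.0495). Its DPBS level was 0.239 to 0.564 CPM, within the toceranib range. NCCRP1, an F-box-like protein of squamous epithelium, went from 63.9, 369.9 and 79.7 CPM to 13.5, 88.6 and 10.9 CPM in KU-cHCC-002, 004 and 005 and was near 0 in KU-cHCC-001 (-2.27 ± 0.27, edgeR adjusted p = 0.0179). DPBS stood at 9.76 to 20.2 CPM, within the toceranib range.

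APBB1IP, the RAP1 effector RIAM that activates integrins, went from 3.22, 18.9, 11.9 and 18.9 CPM to 0.598, 4.21, 2.03 and 3.36 CPM (-2.38 ± 0.28, edgeR adjusted p = 0.0179). The lines fell by a similar factor each, and DPBS stood at 4.04 to 6.78 CPM. MYO3A, a motor protein of actin bundles, went from 59.8, 16.7, 25.5 and 24.9 CPM to 6.92, 5.95, 8.93 and 7.32 CPM (-1.95 ± 0.32, edgeR adjusted p = 0.0410). Here the toceranib libraries lay under all DMSO and all DPBS libraries (9.003 to 14.9 CPM). ABLIM1, an actin-binding LIM protein, fell by 1.55 (SE 0.21, edgeR adjusted p = 0.0267), most in KU-cHCC-004, from 83.3 to 20.6 CPM. Its DPBS libraries, at 15.0 to 18.7 CPM, lay within the toceranib range of 7.52 to 20.6 CPM.

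HTR1B, a serotonin receptor, stood at 71.9, 67.3, 89.4 and 46.0 CPM with DMSO and at 22.3, 25.1, 23.6 and 14.6 CPM with toceranib. It was lower in all toceranib libraries than in any DMSO or DPBS library (31.9 to 43.9 CPM), by -1.65 ± 0.19 against DMSO (edgeR adjusted p = 0.0179). SEMA3E, a semaphorin that repels growing vessels, went from 234, 45.0, 60.4 and 71.0 CPM to 128, 21.5, 10.0 and 16.5 CPM (-1.63 ± 0.30, edgeR adjusted p = 0.0470), and DPBS stood at 30.2 to 35.6 CPM. DERPC, a proline- and glycine-rich nuclear protein, fell by 1.52 (SE 0.27, edgeR adjusted p = 0.0470) and AP3S2, a subunit of the adaptor that sorts cargo to lysosomes, by 1.40 (SE 0.22, edgeR adjusted p = 0.0346). The DPBS libraries had DERPC at 32.5 to 43.8 CPM, against 14.6 to 41.7 CPM with toceranib. AP3S2 went from 18.4 to 32.2 CPM with DMSO to 8.11 to 12.6 CPM with toceranib, under every DPBS library (20.4 to 24.4 CPM).

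ODC1, the first enzyme of polyamine synthesis, fell from 248, 249, 165 and 279.8 CPM to 80.6, 83.8, 99.98 and 114 CPM. The groups were separate (-1.28 ± 0.22, edgeR adjusted p = 0.0420), and DPBS stood at 103 to 129 CPM. PAM, which amidates secreted peptides, fell by 1.10 (SE 0.19, edgeR adjusted p = 0.0420) and CDC42EP1, a CDC42 effector, by 1.16 (SE 0.20, edgeR adjusted p = 0.0435).

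The integrated stress response, in which ATF4 raises amino acid synthesis and transport genes when translation is restrained, had 1 call higher and 0 lower among 43 tested members (0.735% and 0.168% of all genes). Of these, 2 were higher and 11 lower at an unadjusted p under 0.05 (13.5% and 8.86% of all genes), with a median of -0.29 (-0.16, -0.47, -0.44 and -0.08 by line, and 0.25 with DPBS as control). The member called was ATF3, which stood at 45.4, 25.9, 48.6 and 23.3 CPM with DMSO and at 139, 115, 88.7 and 147 CPM with toceranib. All toceranib libraries lay above all DMSO and all DPBS libraries (40.9 to 88.1 CPM), and ATF3 rose by 1.84 ± 0.28 (edgeR adjusted p = 0.0346).

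GDF15, a stress-induced cytokine, stood at 36.0, 15.7, 21.96 and 32.3 CPM with DMSO and at 48.3, 53.7, 56.7 and 103 CPM with toceranib, just outside the threshold (1.33 ± 0.25, edgeR adjusted p = 0.050009, and 0.00552 without KU-cHCC-001). ATF4 itself gave -0.25 ± 0.25 and its partner DDIT3 (CHOP) 0.51 ± 0.23 (edgeR adjusted p = 0.594 and 0.231). TRIB3, a pseudokinase that ATF4 and CHOP induce, stood at 106, 116, 82.9 and 103 CPM with DMSO and at 81.0, 38.1, 42.7 and 55.8 CPM with toceranib (-0.94 ± 0.23, edgeR adjusted p = 0.0707, and 0.0149 without KU-cHCC-001). CHAC1, which degrades glutathione, gave -1.10 ± 0.29 (edgeR adjusted p = 0.0858), and the DPBS levels of both genes lay within the toceranib range.

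Among 31 genes of endoplasmic reticulum chaperones and folding none was called. Of these, 15 stood higher in all 4 lines (15.9% of all genes), 11 were higher and 1 lower at an unadjusted p under 0.05 (13.5% and 8.86%), and the median was 0.38, with 0.21, 0.52, 0.12 and 0.40 by line. HSPA5, the chaperone BiP, stood at 762, 788, 774 and 651 CPM with DMSO and at 985, 1631, 1122 and 1123 CPM with toceranib. The groups did not overlap (0.70 ± 0.24, edgeR adjusted p = 0.137), but DPBS stood at 945 to 1061 CPM. SDF2L1, a BiP cofactor, gave 0.88 ± 0.19 and the secreted stress factor MANF 0.84 ± 0.20 (edgeR adjusted p = 0.0572 and 0.0697), and SEC24D, a coat protein of vesicles leaving this compartment, -0.86 ± 0.19 (edgeR adjusted p = 0.0620). Without KU-cHCC-001, 3 members were called higher and 1 lower, where 8.34% and 3.92% of all genes were.

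Lysosomal genes were a mixed group. Of 48 tested enzymes and membrane proteins 0 were called higher and 1 lower (0.735% and 0.168% of all genes). At an unadjusted p under 0.05, 12 were higher and 2 lower (13.5% and 8.86% of all genes). The median was 0.25 (0.50, 0.40, -0.22 and 0.16 by line). The gene called was IDS, iduronate sulfatase, which degrades heparan and dermatan sulfate. It stood at 32.5, 37.9, 54.1 and 83.6 CPM with DMSO and at 14.3, 17.4, 13.0 and 19.0 CPM with toceranib, lower than every DMSO and every DPBS library (36.1 to 44.1 CPM). IDS fell by 1.61 (SE 0.24, edgeR adjusted p = 0.0346). ARSB, a sulfatase of the same substrates, gave -1.34 ± 0.33 (edgeR adjusted p = 0.0751).

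CD63, a tetraspanin of late endosomes, stood at 384, 561, 609 and 517 CPM with DMSO and at 807, 1114, 1141 and 1174 CPM with toceranib. The groups did not overlap, and the test was not passed (1.05 ± 0.22, edgeR adjusted p = 0.0572). CTSS, cathepsin S, gave 2.14 ± 0.41 (edgeR adjusted p = 0.050009) and GAA, acid alpha-glucosidase, 1.09 ± 0.24 (edgeR adjusted p = 0.0620). CTSK, cathepsin K, which was not on the list, rose from 5.44, 2.87, 3.40 and 3.98 CPM to 25.8, 13.1, 9.87 and 19.6 CPM (2.09 ± 0.27, edgeR adjusted p = 0.0222), with DPBS at 5.59 to 16.4 CPM. The 16 tested subunits of the lysosomal proton pump had no call and a median of -0.04, with 0.50 in KU-cHCC-001 and -0.13, -0.14 and -0.16 in the other lines.

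On the autophagy list 1 of 36 genes was called, beside 0.903% of all genes. ATG9B, a lipid scramblase of forming autophagosomes, stood at 3.54, 35.2, 13.98 and 47.1 CPM with DMSO and at 12.6, 102, 66.9 and 124 CPM with toceranib. Each line rose by a similar factor (1.77 ± 0.21, edgeR adjusted p = 0.0179), and DPBS stood at 51.7 to 79.6 CPM. The lysosome regulators TFE3 and MITF stood lower, by -0.76 ± 0.20 and -1.08 ± 0.25 (edgeR adjusted p = 0.0868 and 0.0697). TFE3 lay at 46.5 to 50.4 CPM with DMSO and 22.9 to 41.2 CPM with toceranib. The list's median was -0.10.

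Cholesterol genes stood somewhat higher without a call. Of 26 tested genes of synthesis and uptake 8 were higher and 1 lower at an unadjusted p under 0.05 (13.5% and 8.86% of all genes), with a median of 0.20. EBP, a sterol isomerase, stood at 47.5, 145, 120.3 and 97.8 CPM with DMSO and at 72.1, 244, 235 and 202 CPM with toceranib (0.86 ± 0.18, edgeR adjusted p = 0.0587, and 0.0204 without KU-cHCC-001), against 111 to 125 CPM with DPBS.

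Of 7 tested genes of cholesterol export, which the sterol-sensing receptor LXR controls, 5 stood higher at an unadjusted p under 0.05 (13.5% of all genes) and the median was 1.04. MYLIP, the LXR target that degrades the LDL receptor, went from 10.4, 10.99, 16.02 and 15.4 CPM to 22.3, 30.3, 33.9 and 21.0 CPM. All toceranib libraries lay above both controls (DPBS 9.93 to 12.1 CPM), with a difference of 1.04 ± 0.24 (edgeR adjusted p = 0.0647). NR1H3, LXR alpha itself, likewise lay above both, at 4.57 to 7.56 CPM against 1.85 to 3.59 with DMSO and 1.63 to 1.92 with DPBS (1.16 ± 0.32, edgeR adjusted p = 0.0912). APOE gave 1.86 ± 0.40 and the sterol exporter ABCG1 2.10 ± 0.50 at under 8 CPM (edgeR adjusted p = 0.0583 and 0.0697). Without KU-cHCC-001 these 4 of the 7 were called higher, where 8.34% of all genes were.

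Mitochondrially encoded transcripts, the messages for respiratory chain subunits made inside mitochondria, took a larger share of all counts with toceranib. The share was 5.10%, 4.12%, 5.84% and 4.70% with DMSO and 5.75%, 12.1%, 8.73% and 13.2% with toceranib. It was higher in 4 of 4 lines, slightly so in KU-cHCC-001. The means were 4.94% ± 0.720 and 9.94% ± 3.37 (SD, n = 4), a difference of 5.00 percentage points (exact two-sided permutation p = 0.125, the smallest that 4 pairs allow). DPBS libraries lay at 9.78% to 11.2%, in the range of toceranib.

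COX1, cytochrome oxidase subunit 1, was listed with 0 counts in the toceranib library of KU-cHCC-004 and 179171 to 701210 in the other 7 libraries. Without COX1 the shares were 3.64% ± 0.387 and 7.38% ± 2.32 (SD, n = 4). Of the 13 transcripts none was called, 12 stood higher at an unadjusted p under 0.05 (13.5% of all genes), and the median log2 fold change was 0.92, with -0.05 in KU-cHCC-001 and 1.24, 1.04 and 1.41 in the others. CYTB, cytochrome b, stood at 2651, 2077, 2791 and 2745 CPM with DMSO and at 2317, 6224, 7422 and 8376 CPM with toceranib (1.14 ± 0.38, edgeR adjusted p = 0.135, and 0.0229 without KU-cHCC-001). DPBS again lay close to toceranib, at 5341 to 7166 CPM. Without KU-cHCC-001, 7 of the 13 were called higher, where 8.34% of all genes were. The 44 tested nuclear genes of the respiratory chain had no call and a median of -0.05.

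**Figure D4:**
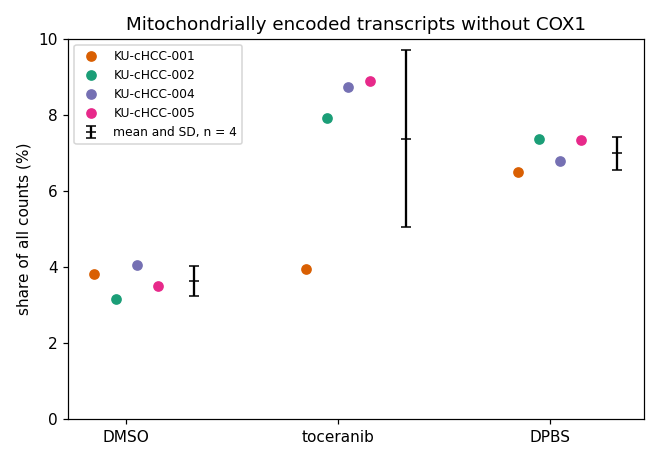
Share of all counts from mitochondrially encoded transcripts other than COX1 (vertical axis, percent) per library, coloured by line, with the mean and SD of 4 libraries. DMSO libraries average 3.64%, toceranib libraries 7.38% with KU-cHCC-001 lowest at 3.95%, and DPBS libraries lie between 6.50% and 7.38%.

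Of 56 tested genes of G2 and mitosis none was called, and 1 was higher and 16 lower at an unadjusted p under 0.05 (13.5% and 8.86% of all genes). The median was -0.39, with -0.13, -0.64, -0.01 and -0.72 by line and -0.23 without KU-cHCC-005. Of 48 G1/S and DNA replication genes none was called, and 0 were higher and 10 lower at an unadjusted p under 0.05, beside the same shares of all genes. Their median was -0.31 with 0.05, -0.80, 0.15 and -0.66 by line and -0.17 without KU-cHCC-002. FOXM1, which drives mitotic genes, stood at 116, 71.7, 25.8 and 37.9 CPM with DMSO and at 50.5, 27.7, 19.6 and 15.5 CPM with toceranib (-1.05 ± 0.22, edgeR adjusted p = 0.0581, and 0.0325 without KU-cHCC-001). BIRC5, survivin, did not overlap between the groups (51.5 to 89.2 CPM and 27.4 to 46.4 CPM) at -0.92 ± 0.26 (edgeR adjusted p = 0.0963), but DPBS at 29.8 to 46.5 CPM lay with toceranib. MKI67 gave -0.45 ± 0.22 (edgeR adjusted p = 0.262).

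Of 25 p53 targets 1 was called higher (0.735% of all genes) and the median was 0.03. TP53INP1, which joins p53 signalling to autophagy, stood at 1.96, 13.9, 35.7 and 15.5 CPM with DMSO and at 7.60, 53.2, 51.5 and 47.6 CPM with toceranib. Each line rose, least in KU-cHCC-004 (1.51 ± 0.27, edgeR adjusted p = 0.0470, and 0.0527 with RLE scaling), and DPBS stood at 34.4 to 43.8 CPM. GADD45A, a growth arrest gene, gave 1.05 ± 0.20 without overlap (edgeR adjusted p = 0.0504), its relative GADD45B rose by 1.11 ± 0.19 (edgeR adjusted p = 0.0420), and CDKN1A, the cell cycle inhibitor p21, gave 0.17 ± 0.23 (edgeR adjusted p = 0.704).

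No apoptosis regulator was called among 25 tested, with 2 higher and 7 lower at an unadjusted p under 0.05 (13.5% and 8.86% of all genes) and a median of -0.19. CASP8, the initiator caspase of death receptors, stood at 20.2, 10.7, 25.8 and 15.3 CPM with DMSO and at 8.24, 9.08, 6.58 and 4.31 CPM with toceranib, under all DMSO and all DPBS libraries (-1.32 ± 0.32, edgeR adjusted p = 0.0751). Both BCL2L1, which protects cells, and BAK1, which permeabilises mitochondria, stood lower (-0.68 ± 0.18 and -0.93 ± 0.27, edgeR adjusted p = 0.0868 and 0.0966).

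Of the interferon-stimulated genes none of 38 tested was called, and 10 stood lower and 0 higher at an unadjusted p under 0.05 (8.86% and 13.5% of all genes). The median was -0.73, with 0.55, -0.23, -1.94 and -1.01 by line. It was -1.16 without KU-cHCC-001 and -0.25 without KU-cHCC-004. MX1, an antiviral GTPase, stood at 7.88, 15.8, 986 and 42.9 CPM with DMSO and at 25.2, 6.92, 52.2 and 5.08 CPM with toceranib. The DMSO library of KU-cHCC-004 was by far the highest, and DPBS stood at 11.7 to 14.8 CPM. ISG15, a ubiquitin-like antiviral protein, went from 1.69, 6.93, 513 and 74.0 CPM to 8.32, 2.47, 71.0 and 6.72 CPM (-1.68 ± 1.05, edgeR adjusted p = 0.406, and 0.0066 without KU-cHCC-001).

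Without KU-cHCC-001, 11 of the 38 genes were called lower, where 3.92% of all genes were. The difference between lines was not tested.

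**Figure D5:**
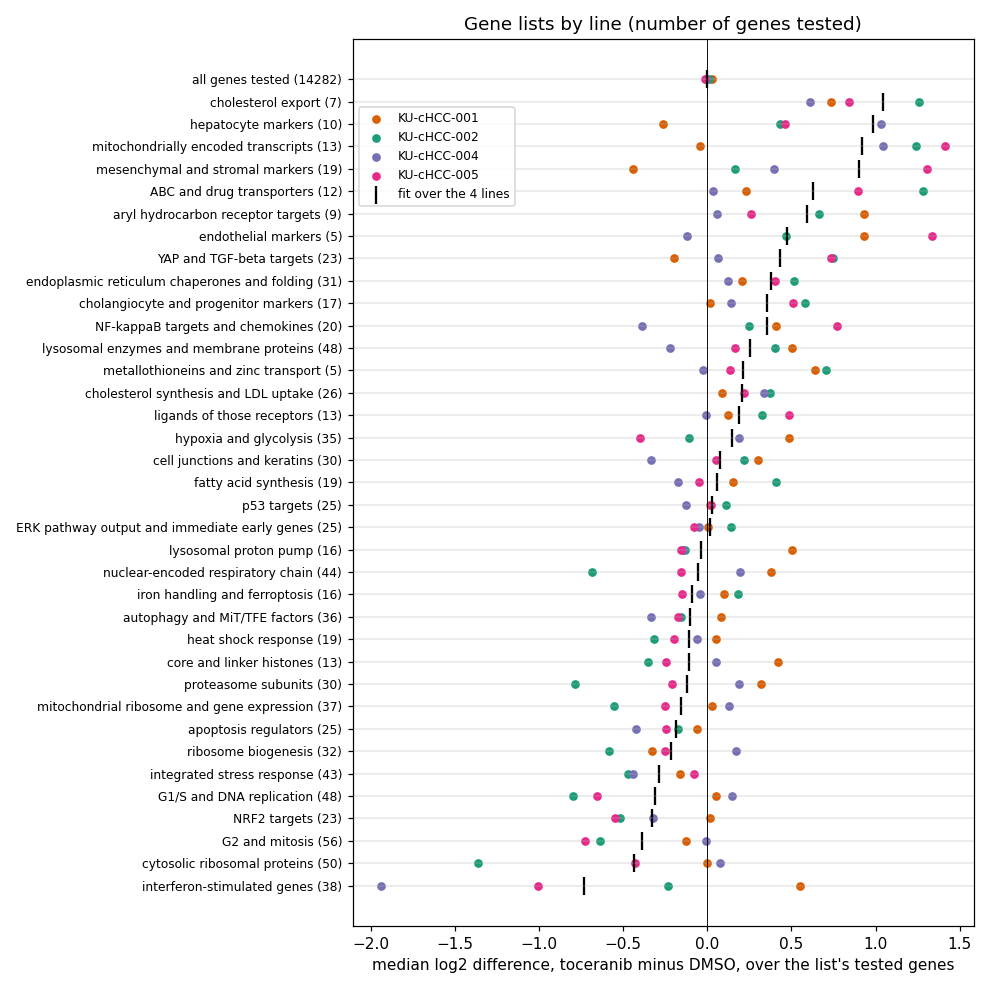
Median log2 difference between toceranib and DMSO (horizontal axis) over the tested members of 36 gene lists and over all genes, 1 point per line and a bar for the fit over 4 lines, with the number of genes in brackets. Cholesterol export lies at 1.04 and interferon-stimulated genes at -0.73, where the lines range from 0.55 in KU-cHCC-001 to -1.94 in KU-cHCC-004.

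Drug transporters of the ABC family gave 1 call among 12 tested, beside 0.903% of all genes. ABCC6, a transporter of liver and kidney, stood at 0, 9.73, 6.96 and 1.71 CPM with DMSO and at 0.683, 51.3, 16.3 and 8.96 CPM with toceranib (2.20 ± 0.41, edgeR adjusted p = 0.0499, and 0.0552 with RLE scaling), with DPBS at 6.81 to 21.8 CPM. Of the others 5 stood higher and 1 lower at an unadjusted p under 0.05 (13.5% and 8.86% of all genes), and the list's median was 0.63 (0.33 without KU-cHCC-002). ABCG2, a multidrug exporter, lay at 0.396 to 0.498 CPM with DMSO and 0.982 to 3.36 CPM with toceranib, without overlap (2.21 ± 0.45, edgeR adjusted p = 0.0555). ABCB1, P-glycoprotein, stood lower in KU-cHCC-001 (204 and 139 CPM), level in KU-cHCC-004 (126 and 126) and higher in KU-cHCC-002 (45.7 and 122) and KU-cHCC-005 (50.7 and 118), with 0.53 ± 0.33 overall (edgeR adjusted p = 0.370).

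Of 35 genes of hypoxia and glycolysis ADM alone was called, beside 0.903% of all genes. ADM, adrenomedullin, a vasodilator peptide, stood at 20.2, 5.31, 8.83 and 7.63 CPM with DMSO and at 102, 15.4, 17.0 and 15.2 CPM with toceranib (1.47 ± 0.28, edgeR adjusted p = 0.0495, and 0.0527 with RLE scaling). Each line rose, most in KU-cHCC-001, and DPBS stood at 5.42 to 15.2 CPM. KDM3A, a histone demethylase induced by hypoxia, gave 1.05 ± 0.20 without overlap (edgeR adjusted p = 0.050009), and NDRG1, another hypoxia gene, -1.03 ± 0.27 (edgeR adjusted p = 0.0858). The list's median was 0.15.

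NRF2 targets, the antioxidant program, gave 0 calls of 23 and a median of -0.33, with 1 gene higher and 4 lower at an unadjusted p under 0.05 (13.5% and 8.86% of all genes). The 50 cytosolic ribosomal proteins had no call and a median of -0.43, which came mainly from KU-cHCC-002 at -1.37, while KU-cHCC-001 and KU-cHCC-004 lay at 0.00 and 0.08 and KU-cHCC-005 at -0.43. Without KU-cHCC-002 the median was -0.14. RPLP0, of the large subunit, stood at 691, 1287, 1201 and 1166 CPM with DMSO and at 673, 355, 699 and 557 CPM with toceranib (-0.92 ± 0.32, edgeR adjusted p = 0.141). DPBS again lay low, at 473 to 600.1 CPM. Metallothionein MT1E stood at 8.77 to 32.7 CPM with DMSO and 43.6 to 49.8 CPM with toceranib, without overlap (1.19 ± 0.30, edgeR adjusted p = 0.0761).

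The heat shock, proteasome, ribosome biogenesis, mitochondrial ribosome, histone, fatty acid synthesis, iron, NF-kappaB and YAP/TGF-beta lists had no call, with medians from -0.22 (ribosome biogenesis) to 0.43 (YAP/TGF-beta). Leukocyte markers were summed at 15.8 to 86.3 CPM with DMSO and 63.1 to 338 CPM with toceranib, mostly from CD14 and, in KU-cHCC-001, CD74 (325 CPM). LAPTM5 reached 4.03 CPM with toceranib and 2.57 CPM with DMSO in KU-cHCC-002, and PTPRC, TYROBP, FCER1G, CD3E, CD4, CD8A, MS4A1, LYZ and C1QA were at 0 in all toceranib libraries. Endothelial markers were summed at 44.0 to 170 CPM and 10.4 to 318 CPM, mostly from EGFL7 and FLT1. In KU-cHCC-001 PECAM1 went from 0.211 to 13.4 CPM and EGFL7 from 129 to 257 CPM. CDH5 stayed at or under 0.166 CPM and EMCN at 0 in every DMSO and toceranib library. Of the mesenchymal list 0 of 19 tested were called, with a median of 0.90 (-0.44, 0.16, 0.40 and 1.31 by line), which was 0.24 without KU-cHCC-004 and 0.0042 without KU-cHCC-005. INHBA, the activin A chain, which is not on that list, rose from 16.3 to 27.8 CPM with DMSO to 48.4 to 60.7 CPM with toceranib (1.29 ± 0.22, edgeR adjusted p = 0.0430), above every DPBS library (27.5 to 47.8 CPM).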

How the data were processed

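RNA was sequenced from 8 libraries (4 lines, DMSO and toceranib), with NEBNext Ultra II Directional libraries per the labels' protocols. The deposited files hold raw counts for each symbol, for which the submitters' processing notes name TopHat. Not given in the sources used here are its version, the counting tool, strand setting, build and annotation, which leaves overlapping and near-identical genes uncertain. No coordinates or sequences are printed. The 39954 entries were summed by symbol (39543 symbols). edgeR 4.0.16 (limma 3.58.1, R 4.3.3) tested 14282 genes kept by filterByExpr, with TMM scaling and robust quasi-likelihood fits of treatment and cell line (3 residual degrees of freedom, common dispersion 0.0910). Benjamini-Hochberg adjustment covered all genes tested. CPM used TMM factors over the 16 libraries. Differences by line, list medians by line and means of log2 levels used log2 of CPM + 0.5.

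The line was a block because same-numbered libraries come from 1 cell line. Deviations from treatment means correlated at 0.560 to 0.786 within a line and at most 0.252 between lines, and 4 of 4 DMSO libraries matched their own line best. Whether libraries were separate cultures is not stated beyond the line, so p-values measure the spread between these libraries.

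Named genes were called at 0.05, with a mean of at least 5 CPM in a group and 1 direction in 4 of 4 lines (symbols starting LOC left out, which are 41 of the 105 higher and 4 of the 24 lower genes). The 12 largest changes per direction, up to 4 called members per list and direction, and the tested receptors were named. The rule, the members and the 38 gene lists were chosen with earlier results of these data known. A planned description of promoter motifs applied to lists with at least 5 calls in 1 direction, and no list reached that. Alternatives were other scaling, DESeq2 1.42.0, no filter, no block, each line left out, added sorafenib libraries, DPBS as control, and mitochondrial transcripts left out. The fit was tested on simulated data.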

Additional observations from a re-analysis of the deposited data

Results flagged for a closer look

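In 73 values with 1 difference per line (the named genes, the lists with 5 or more tested genes and the mitochondrial share), 3 had a line whose gap to the nearest other line exceeded Dixon's critical share of the whole range. Chance flags about 1 in 20 such groups of 4. Log2 differences by line were taken on CPM + 0.5. That of NT5E (CD73) was 3.60 in KU-cHCC-001 and 1.14 to 1.38 in the other lines. The other lines had NT5E at 0.179 to 0.453 CPM with DMSO, where the offset shrinks the difference. Whether the NT5E flag holds without the offset was not tested. The log2 difference of the actin-binding gene ABLIM1 was -1.99 in KU-cHCC-004 and -1.39 to -1.35 elsewhere. The median log2 difference of the lysosomal proton pump subunits was 0.50 in KU-cHCC-001 and -0.16 to -0.13 elsewhere. With 1 library per line and treatment these differences between lines were not tested.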

How the results depend on the processing

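No call held in every alternative. Against 129 calls (105 higher, 24 lower), DESeq2 gave 1417 (869 and 548), no low-count filter 1689 (1076 and 613), and adding sorafenib libraries 1115 (644 and 471). Without the replicate block that pairs libraries by line, edgeR called 0 (0 higher, 0 lower; 1762 at an unadjusted p under 0.05). DPBS as control, without pairing, gave 1 (1 and 0). Leaving out 1 line gave 0 to 1755 calls (0 to 1194 higher, 0 to 561 lower). With sorafenib libraries added, an alternative chosen after seeing the data, it gave 1 to 3044 (1 to 1798 and 0 to 1246), with 3044 (1798 and 1246) without KU-cHCC-001, 7 (1 and 6) without KU-cHCC-002, 4 (3 and 1) without KU-cHCC-004 and 1 (1 and 0) without KU-cHCC-005. RLE scaling and leaving out mitochondrial transcripts gave 94 and 95 calls, and in each 7 of the 36 named genes were no longer called (AMN, ARHGAP45, APOL5, SEMA3E, TP53INP1, ADM and ABCC6).

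In the fit with DPBS as control 7 named genes changed direction: GJB1 (-0.44), SLITRK4 (-0.46), ARHGAP45 (-0.062), NR2F1 (0.21), NCCRP1 (0.94), SEMA3E (0.48) and PDGFRA (2.32), and the cause was not tested. As means of log2 levels NCCRP1 and SEMA3E stood at -0.63 and -0.29 against DPBS and kept their direction. No other alternative turned a named gene. Against DMSO the mitochondrial share kept its direction (3.84 to 6.45 percentage points without 1 line, exact permutation p = 0.0571 without the block). Against DPBS, with a mean of 10.6% beside 9.94% with toceranib, the share was not tested. The 9.94% includes the toceranib library of KU-cHCC-004, in which COX1 was listed with 0 counts. With COX1 left out of all libraries the order of these means turned, and toceranib at 7.38% lay above DPBS. Without the replicate block 33 of the 36 named genes were no longer called; the other 3 are receptors not called in either. In KU-cHCC-005 toceranib had the fewest counts, 12008366, so levels of 3 counts there are 0.258 CPM.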

Other observations

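Some genes differed between toceranib and DMSO far more in KU-cHCC-001 than in the other lines. They were picked after their values were seen, and the difference between lines was not tested. CD74, the invariant chain of MHC class II, went from 2.75 CPM in DMSO to 325 CPM in toceranib in KU-cHCC-001 and lay at 0.276 to 5.26 CPM in the other lines. CIITA, the activator of class II genes, stayed at or under 1.81 CPM in the 8 libraries, and DLA-DMA at or under 1.92 CPM. CLDN7, a tight junction claudin, went from 0.264 to 25.1 CPM, VIL1, villin, from 1.06 to 60.1 CPM, and MUC13, a mucin, from 2.59 to 80.6 CPM. The other lines had CLDN7 at 222 to 455 CPM without and 614 to 741 CPM with the drug. FBN1, fibrillin, went from 165 to 12.1 CPM in KU-cHCC-001 and stood at most at 6.46 CPM elsewhere.

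MHC class I genes of the dog stood higher in 4 of 4 lines without passing the test. DLA88 went from 28.5, 48.9, 97.9 and 40.0 CPM to 76.6, 84.3, 106 and 125 CPM (1.01 ± 0.26, edgeR adjusted p = 0.0818), and DLA-12 and DLA-64 gave 0.99 ± 0.24 and 1.03 ± 0.26 (edgeR adjusted p = 0.0740 and 0.0758). These genes are alike in sequence, so reads may be shared between them. B2M, their common light chain, gave -0.24 ± 0.26. Among RNA processing genes, also picked after their values were seen, CLK4, a kinase of splicing factors, rose from 7.30 to 9.73 CPM to 20.7 to 21.9 CPM (1.39 ± 0.22, edgeR adjusted p = 0.0410), above every DPBS library (12.9 to 15.0 CPM). CCNL1, a cyclin of splicing kinases, rose by 1.51 ± 0.23 (edgeR adjusted p = 0.0346). Its DPBS libraries, at 79.7 to 114 CPM, lay within the toceranib range of 65.8 to 150 CPM.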
